A study of Mus musculus with 24 samples.

Results

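The 10 genes described here build, activate, disassemble or transport actin filaments in the oocyte and are the mouse genes Fmn2, Spire1, Spire2, Actr2, Actr3, Wasl, Wasf1, Cfl1, Rhoa and Myo5b. They were chosen by name among the 55401 genes of the count table, each matched 1 row, and all 10 passed the filter on low counts that left 16736 genes. In the mammalian oocyte the spindle forms near the centre and is moved to the cortex by actin, so that the division that follows is unequal and a small polar body is cut off. Formin-2 and the SPIRE proteins nucleate a cytoplasmic actin mesh together, myosin V motors on RAB11 vesicles organise that mesh, and the Arp2/3 complex builds a branched actin cap at the cortex. Cofilin severs and recycles filaments, and RHOA controls contractility and the ring that cuts off the polar body.

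RNA of mouse oocytes was sequenced in 6 groups of 2 deposited libraries, each made from 5 pooled cells. The groups were untreated controls (con), oocytes that met polystyrene microplastics in the animal (in vivo PSMPs), controls labelled con-in vitro, and oocytes that met the particles outside the animal (in vitro PSMPs). The last pair of groups were oocytes given SAHA, an inhibitor of histone deacetylases, and exposed oocytes that overexpressed the histone deacetylase gene Hdac3 (PSMPs & OE-Hdac3). The labels give no strain, age, dose or duration, and do not tell which control belongs to SAHA or how the overexpressing oocytes met the particles, so each was set against both candidates. All libraries are whole pooled cells, in which fewer transcripts per cell and fewer cells cannot be told apart, and no label states whether replicate libraries are separate animals, so p-values measure only the spread between these libraries.

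Depth ran from 6219784 to 35637690 counts per library, lowest in con-in vitro, and the number of genes with a count from 11640 to 20957, lowest in both controls. The in vivo PSMPs columns were closer than counting noise allows for separate libraries (chi-square per degree of freedom 0.444, elsewhere 16.5 to 384). They were counted as 1 sample (n = 1), assumed to vary like the other groups. Hdac3 stood at 336 and 228 CPM in PSMPs & OE-Hdac3 and between 7.17 and 37.4 CPM elsewhere. The 12 oocyte markers had summed CPM of 10445 and 10911 for con-in vitro, 19493 and 22908 for PSMPs & OE-Hdac3, 29770 for in vivo PSMPs, and 37236 to 53881 for the rest. Only Figla, in con-in vitro replicate 2, was at 0 among them. The 16 cumulus and granulosa markers summed to 167 CPM in in vivo PSMPs with 2 at 0, and to 47.3 and 61.7 CPM in con with 12 at 0 in each library, among them Inha, Fshr, Foxl2 and Amh. Levels are CPM, counts scaled to a common library size with TMM factors, and are given with replicate 1 before replicate 2. Fold changes are log2 values ± standard error. The standard error was derived from the test, as the size of the log2 value over the square root of the quasi-likelihood F statistic. Adjusted p-values are those of edgeR's quasi-likelihood test over the 16736 genes, with 0.05 as threshold.

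Sequence upstream of the transcription start was examined for Fmn2 and for Actr2 and Actr3, since Fmn2 is the nucleator of the cytoplasmic mesh and the other two encode partners of a single complex whose levels came apart in these libraries. Windows of 250 bases that end 1 base before the annotated RefSeq start (GRCm38.p6) were searched on both strands for the GC box (GGGCGG), the core of ETS factor sites (CCGGAA), the CCAAT box (the 5 letters of its name), the TATA box (searched as TATAAA) and the E-box (searched as CACGTG), and no match overlapped another in the windows shown. The windows lie at chr1:174501575-174501824 on the plus strand for Fmn2, chr11:20112952-20113201 on the minus strand for Actr2 and chr1:125435728-125435977 on the minus strand for Actr3. Each is written 5′ to 3′ on the strand of its gene, with matches to a motif or to its reverse complement in capitals.
Fmn2: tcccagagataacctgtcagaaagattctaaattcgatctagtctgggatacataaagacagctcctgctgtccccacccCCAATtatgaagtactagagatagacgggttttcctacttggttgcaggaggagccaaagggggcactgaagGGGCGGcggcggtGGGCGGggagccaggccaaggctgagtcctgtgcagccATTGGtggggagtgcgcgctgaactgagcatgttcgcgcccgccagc
Actr2: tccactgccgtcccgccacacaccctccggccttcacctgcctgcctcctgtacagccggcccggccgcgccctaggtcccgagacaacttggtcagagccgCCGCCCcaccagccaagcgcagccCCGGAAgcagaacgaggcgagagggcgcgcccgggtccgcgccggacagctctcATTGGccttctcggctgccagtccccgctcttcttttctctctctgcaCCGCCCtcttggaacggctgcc
Actr3: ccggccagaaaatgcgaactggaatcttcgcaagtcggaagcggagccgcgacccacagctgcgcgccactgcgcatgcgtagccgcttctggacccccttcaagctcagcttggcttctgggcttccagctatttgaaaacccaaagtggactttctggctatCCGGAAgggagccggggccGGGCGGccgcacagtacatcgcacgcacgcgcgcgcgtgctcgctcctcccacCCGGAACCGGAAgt
The Fmn2 window holds 2 GC boxes and 2 CCAAT boxes. The Actr2 window holds 2 GC boxes, 1 ETS core and 1 CCAAT box, and that of Actr3 holds 1 GC box and 3 ETS cores. None of the 3 holds a TATA box or an E-box. Among all 32851 RefSeq windows of this length, 32.7% hold the GC box, 12% the ETS core, 33.8% the CCAAT box, 12.4% the TATA box and 6.02% the E-box. These matches describe letters only, and no factor was measured here.

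Across the 6 groups, 8 of the 10 genes differed in edgeR's joint test of all groups, against 33.3% of all genes tested. The exceptions were Spire2 (adjusted p = 0.601) and Actr3 (adjusted p = 0.0584). Wasl was the nearest to the threshold among the 8 (adjusted p = 0.0487) and stood above it with DESeq2's size factors (adjusted p = 0.0612). The count depended on the SAHA and PSMPs & OE-Hdac3 libraries, with 3 genes called without SAHA replicate 1 and 4 without SAHA replicate 2 or either PSMPs & OE-Hdac3 library. Calls over all genes in the joint test moved as well, from 1741 to 10766 across the alternatives, so this is not read as particular to the 10 genes. The group that set Actr2, Wasf1 and Rhoa apart was the control for culture, in which all 3 stood far above every other library. Because con-in vitro is the reference of 2 comparisons and is compared with con as well, these contrasts share its libraries and are not independent of each other.

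**Figure D1:**
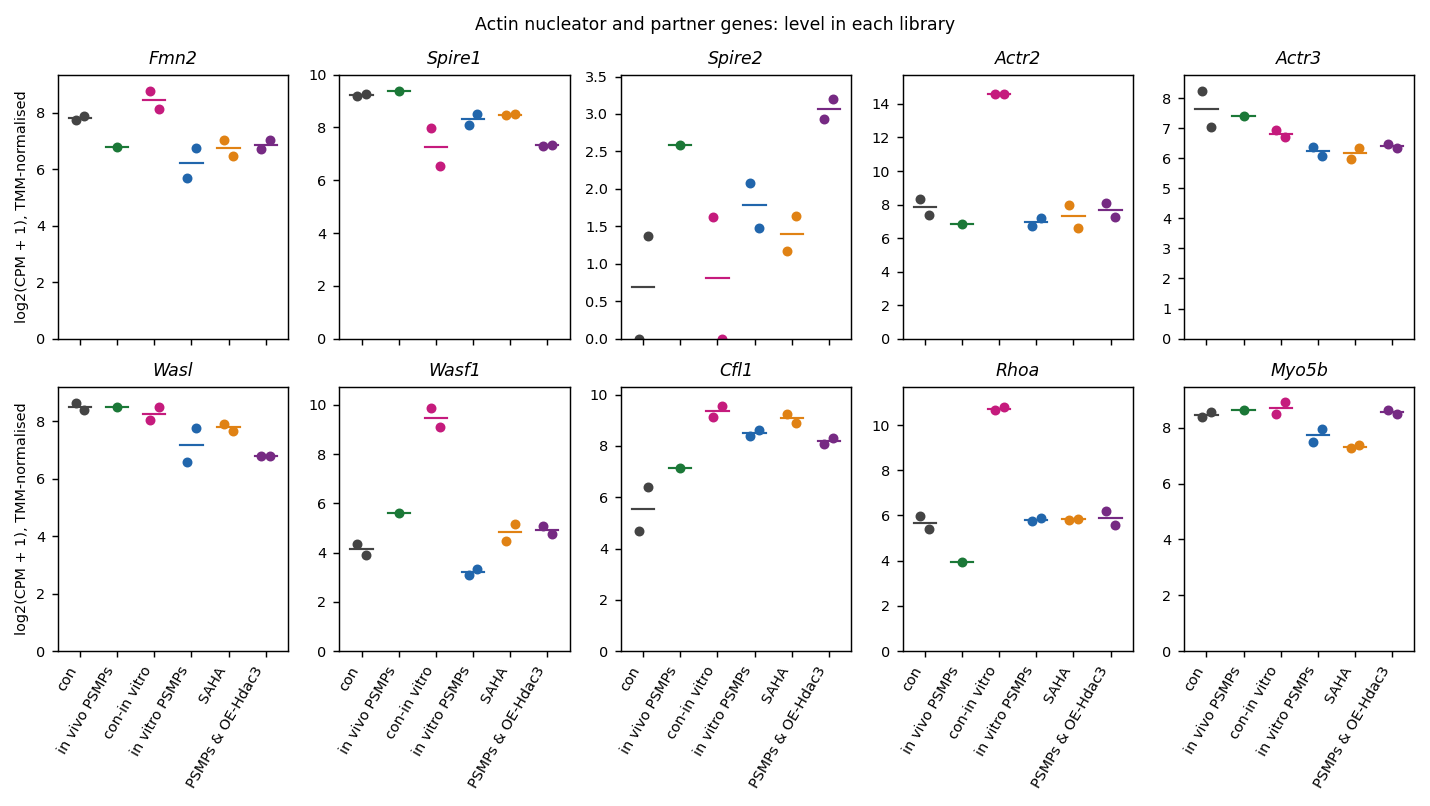
Level of each gene in each of the 11 libraries, as log2(CPM + 1) on the vertical axis and by group on the horizontal axis. Points are libraries, bars are means of the plotted values, and in vivo PSMPs has 1 point. Actr2, Wasf1 and Rhoa are highest in both con-in vitro libraries, while Spire2 stays under 8.19 CPM in every library.

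Fmn2 encodes formin-2, the formin of the oocyte's cytoplasmic mesh (ENSMUSG00000028354.13, mm10, chr1:174501825-174822729). In CPM, con held 215 and 234, in vivo PSMPs 108, con-in vitro 430.0 and 276, in vitro PSMPs 50.1 and 106, SAHA 131 and 86.4 and PSMPs & OE-Hdac3 103 and 131. On this TMM scale, both kinds of control lay above every exposed or treated library, with no overlap. By library totals they overlapped, as con-in vitro replicate 2 (158 CPM) lay below PSMPs & OE-Hdac3 (161 and 205 CPM). The share of all genes with such an order was not counted. Fmn2 was lower in in vitro PSMPs than in the con-in vitro pair (log2 -2.18 ± 0.45, adjusted p = 0.0135) and in SAHA than in the con-in vitro pair (log2 -1.70 ± 0.45, adjusted p = 0.0299). Scaled by library totals, the log2 values were -1.23 (adjusted p = 0.0501) and -0.97 (adjusted p = 0.0988), so that neither passed. The in vitro PSMPs call was also lost without in vitro PSMPs replicate 1 (log2 -1.73, adjusted p = 0.0816), and the SAHA call was lost in 8 of 21 alternatives, among them without either SAHA library, either PSMPs & OE-Hdac3 library or con-in vitro replicate 1, with adjusted p up to 0.179. Against con, the values were -1.05 ± 0.56 (adjusted p = 0.277) for in vivo PSMPs and -1.04 ± 0.44 (adjusted p = 0.109) for SAHA, and neither passed. With con-in vitro left out of the fit, SAHA passed (log2 -1.23, adjusted p = 0.0488).

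Spire1 encodes the nucleator that works with formin-2 (ENSMUSG00000024533.17, chr18:67488209-67610790). For Spire1, the CPM values were con 579 and 611, in vivo PSMPs 668, con-in vitro 254 and 91.3, in vitro PSMPs 274 and 363, SAHA 357 and 360 and PSMPs & OE-Hdac3 156 and 163. The con and in vivo PSMPs libraries were the highest, and con-in vitro and PSMPs & OE-Hdac3 the lowest, with overlapping ranges. Spire1 was lower in the con-in vitro libraries than in con (log2 -1.79 ± 0.45, adjusted p = 0.0222), a call kept in all 21 alternatives. In PSMPs & OE-Hdac3 its log2 value was -0.9985 ± 0.44 against in vitro PSMPs (adjusted p = 0.256) and -2.07 ± 0.51 against in vivo PSMPs (adjusted p = 0.18), neither of which passed. They passed in 2 and 4 of 22 alternatives. Against con-in vitro, Spire1 was 0.88 (adjusted p = 0.195) in in vitro PSMPs and 1.054 (adjusted p = 0.122) in SAHA. Both passed as higher with library totals (log2 1.87, adjusted p = 0.0144, and 1.78, adjusted p = 0.0166) and without con-in vitro replicate 1 (log2 1.80, adjusted p = 0.0132, and 1.97, adjusted p = 0.0087).

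Spire2, the paralogue of Spire1 (ENSMUSG00000010154.7, chr8:123332713-123369515), was near the limit of detection. It had 0 and 62 counts in con, 194 in in vivo PSMPs, 7 and 0 in con-in vitro, 40 and 22 in in vitro PSMPs, 22 and 37 in SAHA, and 102 and 90 in PSMPs & OE-Hdac3. On the CPM scale, con held 0 and 1.60, in vivo PSMPs 5.00 and PSMPs & OE-Hdac3 6.64 and 8.18. A count of 0 allows up to 3 counts, which is 0.104 CPM in con replicate 1 and 0.820 CPM in con-in vitro replicate 2. No comparison passed for Spire2 (standard errors from 1.85 to 2.92 on the log2 scale), and its con libraries differed from each other, with no count in the first. Without con replicate 2, which left con at 0, Spire2 passed against con in in vivo PSMPs (adjusted p = 0.0238), SAHA (adjusted p = 0.0301) and con-in vitro (adjusted p = 0.043). A fold against a group at 0 has no fitted size. Spire2 also passed as higher in PSMPs & OE-Hdac3 than in in vitro PSMPs when only those groups were fitted (log2 1.54, adjusted p = 0.0476). Between the paralogues, compared per kilobase of exon, con held 76.6 CPM per kb of Spire1 and 0.318 of Spire2, and PSMPs & OE-Hdac3 held 20.5 and 2.95.

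Actr2 and Actr3 encode ARP2 and ARP3, the actin-related subunits from which the Arp2/3 complex starts a branch. Actr2 (ENSMUSG00000020152.7, chr11:20062304-20112913) stood at 24956 and 24578 CPM in con-in vitro. In the other libraries the CPM values were con 326 and 165, in vivo PSMPs 114, in vitro PSMPs 104 and 148, SAHA 247 and 97.9 and PSMPs & OE-Hdac3 273 and 154. The con-in vitro libraries were far above all others, and the remaining groups overlapped their neighbours in order of level. Actr2 reads were 1.35% (95% exact binomial interval 1.34% to 1.36%) and 1.40% (1.40% to 1.41%) of the counts in con-in vitro. They ranked 5 and 6 among all genes there, and the intervals cover counting error only. Actr2 was higher in con-in vitro than in con (log2 6.66 ± 0.65, adjusted p = 0.000293). It was correspondingly lower against con-in vitro in in vitro PSMPs (log2 -7.62 ± 0.67, adjusted p = 0.000217) and in SAHA (log2 -7.17 ± 0.66, adjusted p = 0.000247). All 3 calls were kept in each of 21 alternatives. In in vivo PSMPs against con the value was -1.11 ± 0.65 and did not pass (adjusted p = 0.333).

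Actr3 (ENSMUSG00000026341.16, chr1:125392905-125435727) did not share that pattern. Its CPM values were con 304 and 130.04, in vivo PSMPs 169, con-in vitro 121 and 103, in vitro PSMPs 82.7 and 67.0, SAHA 62.1 and 80.0 and PSMPs & OE-Hdac3 88.6 and 79.4. The highest level was in con replicate 1, and the in vitro PSMPs, SAHA and overexpressing libraries overlapped one another below both controls. By library totals that order did not hold, with con-in vitro at 65.8 and 59.0 CPM and PSMPs & OE-Hdac3 at 139 and 124 CPM. Actr3 was lower in SAHA oocytes than in con (log2 -1.61 ± 0.44, adjusted p = 0.0275), and con-in vitro against con did not pass (log2 -0.95 ± 0.43, adjusted p = 0.147). The latter passed with library totals (log2 -1.77, adjusted p = 0.0135) and without con replicate 2 (log2 -1.60, adjusted p = 0.012). The SAHA call was lost in 6 of 22 alternatives, with log2 -0.87 and adjusted p = 0.108 without con replicate 1 and adjusted p = 0.155 and 0.0942 without SAHA replicates 1 and 2. Without either PSMPs & OE-Hdac3 library, the adjusted p was 0.057 and 0.0568. A pseudogene, Actr3-ps, has a row of its own in the table, and how reads that fit both were counted is not stated, so the Actr3 level is uncertain. Per kilobase of exon, Actr2 and Actr3 stood at 47.2 and 46.8 CPM per kb in con, and at 4759 and 24.3 CPM per kb in con-in vitro.

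**Figure D2:**
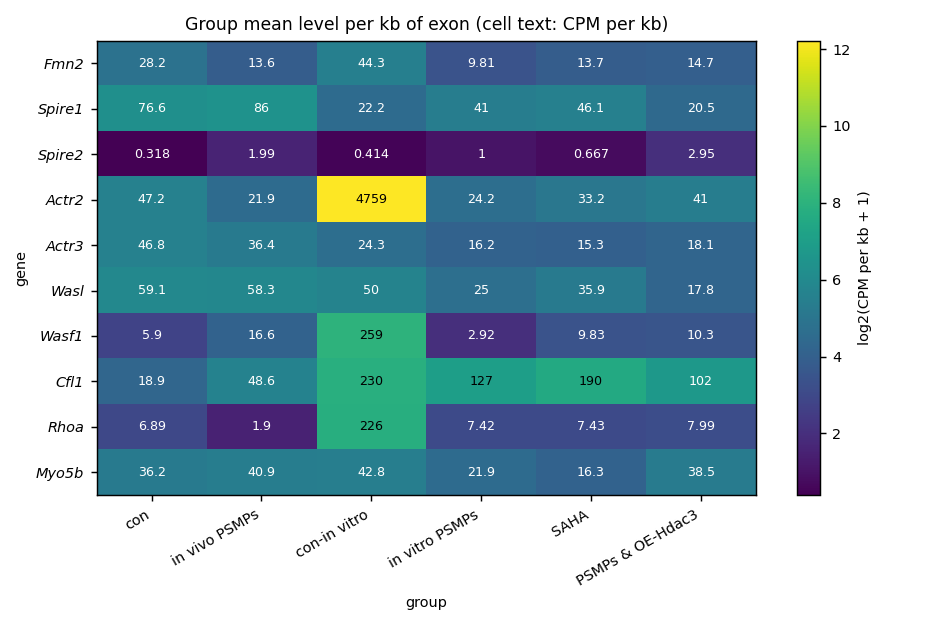
Mean level of each gene (rows) in each group (columns) as CPM per kilobase of merged exon, written in each cell and coloured as log2(CPM per kb + 1). In con the order ran from Spire1 at 76.6 to Spire2 at 0.318 CPM per kb, and in con-in vitro Actr2 led with 4759 CPM per kb.

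Wasl and Wasf1 encode activators of the Arp2/3 complex, N-WASP and WAVE1. Wasl (ENSMUSG00000029684.14, chr6:24613805-24665009) had CPM values of con 398 and 330.5, in vivo PSMPs 359, con-in vitro 262 and 355, in vitro PSMPs 94.7 and 214, SAHA 240.3 and 202 and PSMPs & OE-Hdac3 109 and 111. On the TMM scale, both controls and in vivo PSMPs lay above the other 3 groups without overlap. By library totals, con-in vitro replicate 1 (142 CPM) lay below SAHA (221 and 183 CPM) and PSMPs & OE-Hdac3 (170 and 173 CPM). The share of all genes with such an order was not counted. No single comparison passed for Wasl, with log2 -0.9997 ± 0.41 against con-in vitro in in vitro PSMPs (adjusted p = 0.126) and -1.71 ± 0.47 for PSMPs & OE-Hdac3 against in vivo PSMPs (adjusted p = 0.2). The first of these ran from -0.08 with library totals to -1.70 without in vitro PSMPs replicate 2, where it passed (adjusted p = 0.0456). The second passed in 2 of 22 alternatives. Between the controls the Wasl value was -0.24 (adjusted p = 0.775), and with library totals -1.09, which passed (adjusted p = 0.044).

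Wasf1 (ENSMUSG00000019831.14, chr10:40883475-40938570) stood at 934 and 544 CPM in con-in vitro. Elsewhere its CPM values were con 19.5 and 14.2, in vivo PSMPs 47.4, in vitro PSMPs 7.62 and 9.05, SAHA 21.3 and 34.8 and PSMPs & OE-Hdac3 33.1 and 25.9. The in vitro PSMPs libraries were the lowest of all and did not overlap any other group. Wasf1 was higher in con-in vitro than in con (log2 5.46 ± 0.48, adjusted p = 0.000201) and lower than con-in vitro in in vitro PSMPs (log2 -6.47 ± 0.51, adjusted p = 0.000125) and in SAHA (log2 -4.72 ± 0.47, adjusted p = 0.000318), calls kept in each of 21 alternatives. With Hdac3 overexpression it was higher than in in vitro PSMPs (log2 1.82 ± 0.42, adjusted p = 0.0432). That call was lost in 8 of 22 alternatives, including the removal of any 1 of the in vitro PSMPs, SAHA or PSMPs & OE-Hdac3 libraries (adjusted p from 0.0724 to 0.354). In in vivo PSMPs against con the value was 1.49 ± 0.47 and did not pass (adjusted p = 0.0814), though it did with library totals (log2 1.84, adjusted p = 0.0481) and with the in vivo PSMPs columns as 2 libraries (adjusted p = 0.0195).

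Cfl1 encodes cofilin-1 (ENSMUSG00000056201.8, chr19:5490455-5495201). Of its exonic bases, 468 overlap Snx32 on the opposite strand, and since counting by strand is not stated, reads there cannot be assigned to one of them. Its CPM values were con 24.6 and 83.1, in vivo PSMPs 138, con-in vitro 557 and 751, in vitro PSMPs 329 and 394, SAHA 610 and 473 and PSMPs & OE-Hdac3 271 and 311. Cfl1 was lowest in con, and every library outside con lay above both con libraries. It was higher than con in con-in vitro (log2 3.60 ± 0.56, adjusted p = 0.00256), a call kept in 21 of 21 alternatives, and in SAHA (log2 3.33 ± 0.55, adjusted p = 0.00759). Without SAHA replicate 1 the latter had an adjusted p of 0.0554. In in vivo PSMPs against con the value was 1.36 ± 0.59 (adjusted p = 0.184). It passed without con replicate 2 (log2 2.47, adjusted p = 0.00887). Per kilobase of exon, Cfl1 was the highest of the 10 in SAHA (190.3 CPM per kb), in vitro PSMPs (127) and PSMPs & OE-Hdac3 (102).

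Rhoa encodes the small GTPase RHOA (ENSMUSG00000007815.13, chr9:108306129-108337934), and 356 of its exonic bases overlap Gm37401 or Tcta on the opposite strand. It stood at 1637 and 1752 CPM in con-in vitro. Elsewhere its CPM values were con 62.0 and 41.1, in vivo PSMPs 14.2, in vitro PSMPs 53.3 and 57.8, SAHA 54.9 and 56.5 and PSMPs & OE-Hdac3 72.9 and 46.8. The con, in vitro PSMPs, SAHA and overexpressing libraries overlapped, with con-in vitro far above them and in vivo PSMPs below. Rhoa was higher in con-in vitro than in con (log2 5.04 ± 0.39, adjusted p = 0.000108), and lower than con-in vitro in in vitro PSMPs (log2 -4.93 ± 0.39, adjusted p = 0.000124) and in SAHA (log2 -4.93 ± 0.39, adjusted p = 0.000141), in each of 21 alternatives.

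Rhoa was also the gene that passed in in vivo PSMPs against con (log2 -1.86 ± 0.45, adjusted p = 0.0497), 1 of 10 where 4.88% of all genes passed, 4.59% higher and 0.287% lower. The call rests on a choice made after a first result was seen. When genes were filtered after the in vivo PSMPs columns were merged, the first version run, the Rhoa value was -1.85 with an adjusted p of 0.0566, no gene of the 10 passed, and 150 genes passed in all against 817. The Rhoa call was lost in 13 of 22 alternatives, with log2 from -1.51 to -2.15 and adjusted p up to 0.719. With library totals, Wasf1 passed as higher in its place. The Rhoa call was also lost without con replicate 1 (adjusted p = 0.0528), without in vivo PSMPs replicate 2 (adjusted p = 0.0505), and without any 1 library of in vitro PSMPs, SAHA or PSMPs & OE-Hdac3 (adjusted p from 0.107 to 0.134). The in vivo PSMPs library also held the highest summed cumulus and granulosa markers, and their part in the Rhoa value was not tested.

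Myo5b encodes a class V myosin of RAB11 vesicles (ENSMUSG00000025885.18, chr18:74440936-74771493). Measured as CPM, Myo5b values were con 332 and 375, in vivo PSMPs 399.7, con-in vitro 355 and 482, in vitro PSMPs 178 and 249, SAHA 154 and 165 and PSMPs & OE-Hdac3 396 and 357. The SAHA and in vitro PSMPs libraries lay below all others, and the remaining 4 groups overlapped or adjoined. By library totals, con-in vitro replicate 1 (192 CPM) lay below in vitro PSMPs (219 and 245 CPM). Myo5b was lower in SAHA than in the con-in vitro pair (log2 -1.39 ± 0.32, adjusted p = 0.0161) and than in con (log2 -1.15 ± 0.31, adjusted p = 0.0271). Both calls were lost without either SAHA library (adjusted p from 0.0991 to 0.131), and the call against con-in vitro was also lost without PSMPs & OE-Hdac3 replicate 1 (adjusted p = 0.0501) and with library totals (log2 -0.69, adjusted p = 0.106). Exposure in culture gave Myo5b a value of -0.97 ± 0.31 (adjusted p = 0.066). It passed in 6 of 21 alternatives, among them DESeq2's Wald test (log2 -1.02, adjusted p = 0.0122), and was -0.0096 with library totals (adjusted p = 0.997). In PSMPs & OE-Hdac3 against in vitro PSMPs it was 0.82 ± 0.31 (adjusted p = 0.188), and with library totals 1.34 (adjusted p = 0.0332).

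**Figure D3:**
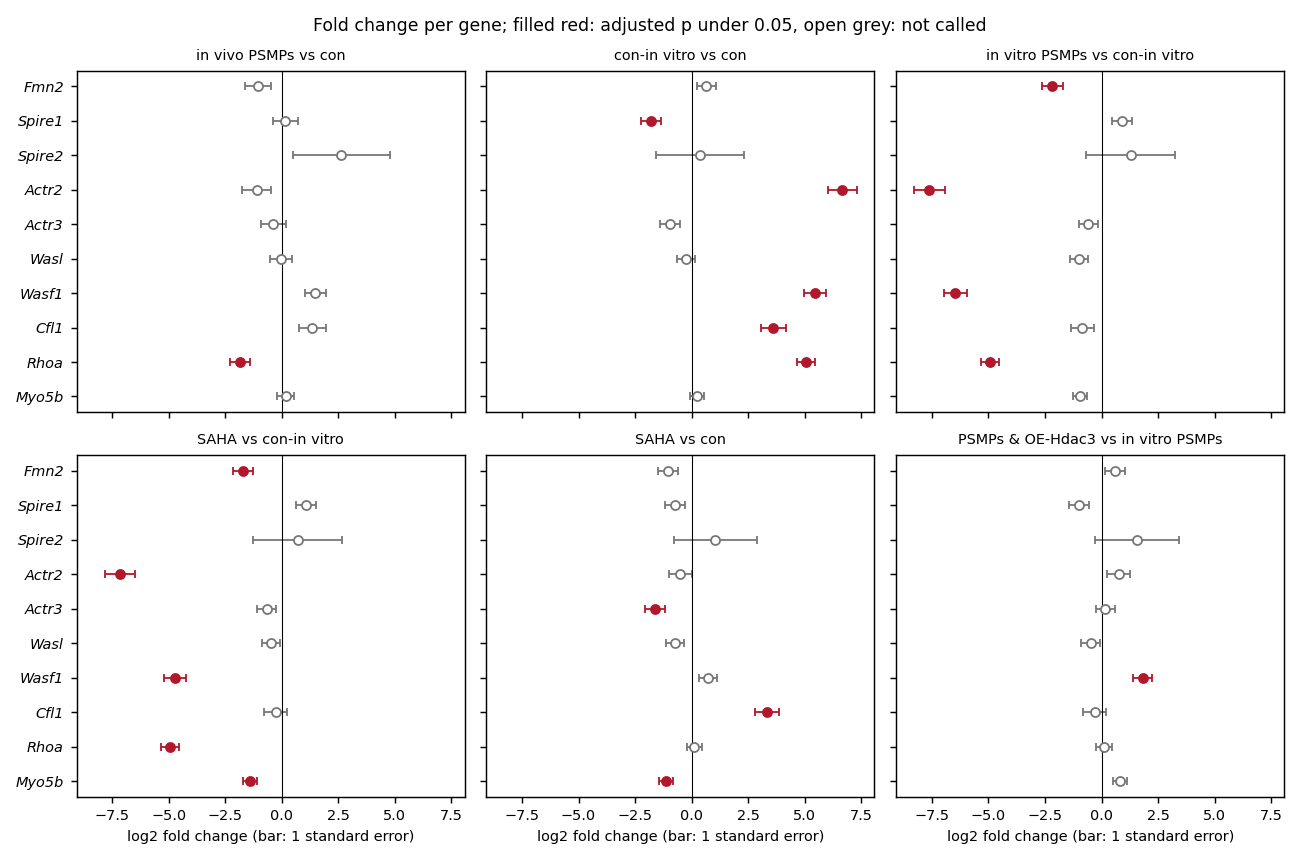
Log2 fold change of each gene in 6 comparisons, with bars of 1 standard error. Filled red points passed an adjusted p of 0.05 and open grey points did not. The points farthest from 0 belong to Actr2, Wasf1 and Rhoa in the comparisons with con-in vitro, from 6.66 for Actr2 against con to -7.62 for Actr2 in in vitro PSMPs.

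Counted by comparison, 4 of the 10 genes were lower and none higher in in vitro PSMPs than in the con-in vitro pair, where 15.4% of all genes passed, 8.57% higher and 6.78% lower. In SAHA against con-in vitro, 5 were lower and none higher, where 19.8% of all genes passed, 11.7% higher and 8.14% lower. In SAHA against con, 1 was higher and 2 were lower, where 27% of all genes passed, 20.2% higher and 6.75% lower. In con-in vitro against con, 4 were higher and 1 lower, where 25.1% of all genes passed, 14.7% higher and 10.5% lower. Fits to only the groups of each comparison lost every call on Fmn2, Myo5b, Actr3 and Cfl1 with SAHA, and the Fmn2 call with PSMPs in culture (adjusted p from 0.0751 to 0.127). Against con this loss was not particular to the 10 genes. In the same edgeR fit, other actin genes called in SAHA lost their calls too, Pak4 (adjusted p = 0.0808) and Tmsb10, Pak2, Cit, Rab11fip4 and Rhob (adjusted p = 0.0825 each). The median log2 value of the 10 genes was -0.98 for in vitro PSMPs set against con-in vitro and -1.03 in SAHA against con-in vitro, beside 0.71 and 0.66 over all genes tested. Scaled by library totals, the medians over all genes were 1.70 and 1.37, which are not comparable with the TMM medians of the 10 genes. That scaling moved the 10 genes too. In in vitro PSMPs it gave Spire1 1.87, Actr3 0.426, Cfl1 0.117, Myo5b -0.0096, Wasl -0.08 and Fmn2 -1.23. Actr2, Wasf1 and Rhoa stayed at -3.95 or below in every alternative. With library totals, calls over all genes in in vitro PSMPs were 3473 higher and 758 lower in place of 1435 and 1135. Among the 10 genes the calls were then 1 higher (Spire1) and 3 lower in each of these comparisons, with Fmn2 lost in both and Myo5b in SAHA. With the same scaling, con-in vitro against con had 4 higher and 3 lower. Calls over all genes in that comparison ran from 1502 to 6538 across the alternatives.

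Overexpression of Hdac3 in exposed oocytes gave 1 gene higher against in vitro PSMPs, Wasf1, where 4.83% of all genes passed, 1.85% higher and 2.98% lower. Against in vivo PSMPs none of the 10 and 0% of all genes passed in edgeR's test, while DESeq2's Wald test called 2 of the 10 and 849 genes in all. Those 2 were Spire1 (log2 -1.94, adjusted p = 0.0411) and Rhoa (log2 2.196, adjusted p = 0.000651). In the fit to all groups edgeR gave Rhoa 2.07 ± 0.45 (adjusted p = 0.159), which passed in 4 of 22 alternatives. Oocyte markers summed to less in PSMPs & OE-Hdac3 than in either PSMPs group, and their part in these values was not tested.

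The effect of PSMPs in culture was compared with that in the animal by the difference of the log2 values. It passed for Actr2, Wasf1 and Rhoa, all lower in culture, where 11.3% of all genes passed, 4.87% higher and 6.4% lower. For Cfl1 the difference was -2.21 ± 0.78 (adjusted p = 0.0995), and without con replicate 2 it was -3.26 and passed (adjusted p = 0.0032). The difference contains both controls, and the level of the same 3 genes in con-in vitro stood 5.04 to 6.66 above con on the log2 scale.

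The wider actin pathway was described by 107 further genes in 7 lists, of which 99 were tested. In in vivo PSMPs against con 6 were higher and none lower, beside 4.59% and 0.287% of all genes tested. For in vitro PSMPs, 11 were higher and 17 lower than in their con-in vitro reference, beside 8.57% and 6.78% of all genes. For SAHA the numbers were 15 and 15 with that reference (all genes 11.7% and 8.14%) and 17 and 10 with con (20.2% and 6.75%). Between the controls 18 were higher and 13 lower in con-in vitro (all genes 14.7% and 10.5%). In PSMPs & OE-Hdac3 against in vitro PSMPs 2 were higher and 6 lower (all genes 1.85% and 2.98%). Their median log2 value was -0.09 for in vitro PSMPs set against con-in vitro, beside 0.71 over all genes.

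**Figure D4:**
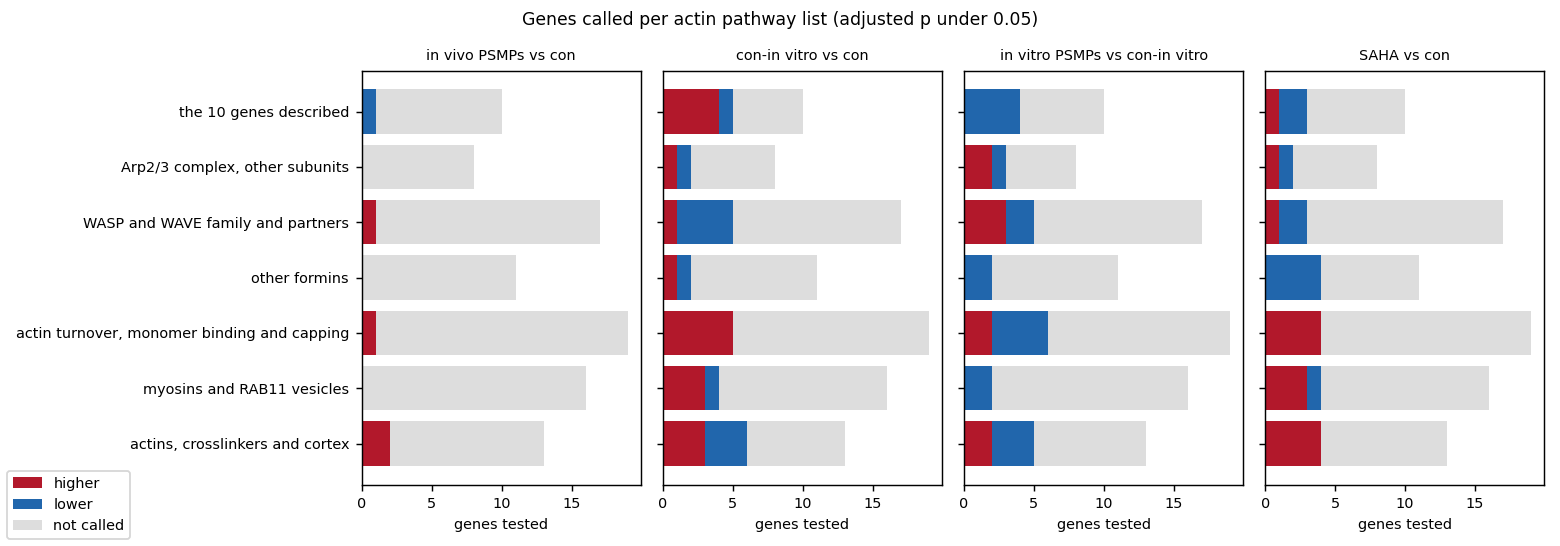
Number of genes called higher (red), called lower (blue) and not called (grey) in the 10 genes described and in each of 6 of the 7 lists of other actin genes, in 4 comparisons. The horizontal axis counts genes tested. In in vivo PSMPs against con 1 of the 10 is lower and no gene of the 6 lists is lower, beside 0.287% of all genes. In con-in vitro against con 4 of the 10 are higher and 1 is lower, beside 14.7% and 10.5% of all genes.

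Among other subunits of the Arp2/3 complex, 8 genes were tested. Of these, 2 were higher and 1 lower for in vitro PSMPs set against con-in vitro (all genes 8.57% and 6.78%). In con-in vitro against con, 1 was higher and 1 lower (all genes 14.7% and 10.5%). Among WASP and WAVE partners, Brk1, a small subunit of the WAVE complex, was lower in the con-in vitro libraries than in con, at 8.33 ± 2.13 against 157 ± 17.7 CPM (SD, n = 2 each, log2 -4.23 ± 0.42). This was opposite in sign to Wasf1. Cttn, which encodes cortactin, a stabiliser of Arp2/3 branches, had 3 counts in con-in vitro and 1304 in con. Its level in con-in vitro was lower by a ratio of 45.2 (95% Poisson interval 15.4 to 219, which covers counting error only). That Cttn call was kept in 20 of 21 alternatives, with an adjusted p of 0.188 in the other.

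Among the formins, Fmnl3 stood at 634 ± 141 CPM in con-in vitro, 17.0 ± 5.62 CPM in in vitro PSMPs and 416 ± 0.881 CPM in PSMPs & OE-Hdac3 (SD, n = 2 each). The con libraries held 30.9 and 120 CPM, in vivo PSMPs 230 CPM and the SAHA libraries 17.8 and 18.6 CPM. Thus con lay far below con-in vitro, and the exposed in vivo PSMPs library lay above con. Fmnl3 was lower in in vitro PSMPs than in the con-in vitro pair (log2 -5.22 ± 0.66) and higher in PSMPs & OE-Hdac3 than in in vitro PSMPs (log2 4.61 ± 0.65). The second of these calls was lost without any 1 library of the 2 groups (adjusted p from 0.0698 to 0.136). Myh9, the heavy chain of non-muscle myosin IIA, was lower with PSMPs in culture, at 8.17 ± 0.209 CPM, than in its control, at 369 ± 18.5 CPM (SD, n = 2 each, log2 -5.50 ± 0.59). Elsewhere Myh9 stood at 28.8 and 13.0 CPM in con and 11.3 in in vivo PSMPs. It held 17.5 and 8.30 CPM in SAHA and 34.9 and 33.5 in PSMPs & OE-Hdac3, so that con-in vitro alone was far above the rest.

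Of the genes for monomer binding and capping, Tmsb10, which encodes an actin-monomer-binding thymosin, stood at 195 ± 65.7 CPM in in vitro PSMPs and 307 ± 9.01 CPM in SAHA, while con held 6.91 ± 5.75 CPM and con-in vitro 5.87 ± 1.35 CPM (SD, n = 2 each). It was higher in in vitro PSMPs than in the con-in vitro pair (log2 5.05 ± 0.69) and in SAHA than in con (log2 5.47 ± 0.68), the second lost in a fit to only its groups (adjusted p = 0.0825). Capzb, a subunit of capping protein, was higher in in vivo PSMPs, at 59.0 CPM, than in con, at 3.79 ± 0.544 CPM (SD, n = 2, log2 3.96 ± 0.55). Elsewhere Capzb stood at 54.6 and 82.5 CPM in con-in vitro and 42.8 and 40.5 in in vitro PSMPs. It held 43.6 and 68.4 CPM in SAHA and 61.4 and 45.3 in PSMPs & OE-Hdac3, so that con alone was low. The Capzb call was kept in 14 of 22 alternatives, and lost without any 1 library of in vitro PSMPs, SAHA or PSMPs & OE-Hdac3 (adjusted p from 0.107 to 0.134). Tpm4, a tropomyosin, had no count in either con-in vitro library, and was at least 32.6-fold higher in in vitro PSMPs, computed against 3 counts over the group. That call was lost without either in vitro PSMPs library or con-in vitro replicate 2 (adjusted p from 0.0526 to 0.0646).

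The genes nearest to each of the 10 in pattern over the 11 libraries were found among 7131 candidates by the root-mean-square difference of centred log2(CPM + 1) values. For Fmn2 they were Hmgxb4 (0.23) and Slc30a4 (0.29), for Spire1 Ccdc14 (0.27) and Tubgcp5 (0.30), for Rhoa Sdf2l1 (0.29) and Ptges3 (0.32), and for Cfl1 Mllt3 (0.26) and Syt11 (0.38). For Actr2 they were Jag1 (0.49) and Ppp4r3a (0.57), and for Wasf1 Igsf11 (0.48) and Ankrd13c (0.62), both farther away than for the other 8 genes. The distances are not divided by a gene's own spread. That spread was an SD of 2.97 for Actr2, 2.19 for Wasf1, 2.16 for Rhoa and 0.87 for Fmn2 on this scale. Within the 10, the nearest pair was Actr3 and Myo5b (0.59) and the farthest Spire2 and Actr2 (3.40), while Actr2 and Actr3 lay 2.82 apart and Fmn2 and Spire1 1.25 apart. These distances describe libraries that share depth and group, and carry no test.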

How the data were processed

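RNA counts per gene were deposited by the authors for 12 oocyte libraries in 6 groups and used as raw counts of 55401 genes. Per the submitters' processing notes, the tools were HISAT2, Bowtie2 2.2.5, featureCounts, DESeq2, Picard, SAMtools, deepTools 3.5.1 and fastp 0.12.4 with the build mm10, listed without role or order. Whether reads were counted by strand is not given in the sources used here. The CUT&Tag libraries were not analysed here.

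Depth ran from 6219784 to 35637690 counts, so that 3 counts correspond to 0.0773 to 0.890 CPM. Counts were analysed in R 4.3.3 with edgeR 4.0.16. Genes were kept by edgeR's filter (minimum count 10), scaled by TMM, and tested in 1 robust quasi-likelihood fit that left 5 residual degrees of freedom and had a biological coefficient of variation of 71.9%. Adjusted p-values are Benjamini-Hochberg values over the 16736 genes kept, read against a threshold of 0.05. The in vivo PSMPs columns were merged as their rounded mean. The filter was first run after that merge and was moved to the 12 deposited columns once its results had been seen, which moved the Rhoa call in in vivo PSMPs across the threshold.

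The 10 genes and the lists were chosen with earlier results of these data known. Pathway genes were eligible to be named by the size of their fold change among those past the threshold, up to 3 per direction and comparison, where the higher group averaged 10 CPM or more and the libraries of both groups did not overlap, and those described were picked from these after their values were seen. Nearest genes had a mean of at least 10 CPM and were compared as log2(CPM + 1). Promoters are from a table of RefSeq starts, in which 8 of the 10 genes matched by symbol. Levels per kb use the merged exons of the deposited table. Alternatives were other filters, DESeq2 1.42.0, other scalings, a replicate block, fits to fewer groups, unmerged columns, and leaving out each column in turn. The procedure was tested on simulated data. The result of 1 gene list is not reported here.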

Additional observations from a re-analysis of the deposited data

Results flagged for a closer look

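The effect of PSMPs in culture (in vitro PSMPs against con-in vitro) differed from the effect in the animal (in vivo PSMPs against con) for 3 of the 10 genes, by edgeR's test of the difference itself. For Actr2 the log2 difference was -6.51 ± 0.81 (adjusted p = 0.00275), for Wasf1 -7.96 ± 0.66 (adjusted p = 0.000459) and for Rhoa -3.07 ± 0.52 (adjusted p = 0.00813). The Actr2 and Wasf1 calls were kept in each of 21 alternatives, and the Rhoa call was lost when only its own groups were fitted (log2 -2.70, adjusted p = 0.0894). Levels of Actr2, Wasf1 and Rhoa in con-in vitro move with these differences, and that group also held the lowest depth and the lowest summed oocyte markers. The part of depth and markers was not tested.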

How the results depend on the processing

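Counts of the 10 genes called that moved by over 1.5 times were these. For in vivo PSMPs against con, 1 became 0 with DESeq2's size factors, the replicate block, only the groups of the comparison, or the filter after merging, and 2 with the in vivo PSMPs columns as 2 libraries (0 to 3 leaving out 1 library). For SAHA against con-in vitro, 5 became 3 with only its groups (3 to 5). For SAHA against con, 3 became 0 with only its groups and 5 with con-in vitro left out (0 to 4). For PSMPs & OE-Hdac3 against in vitro PSMPs, 1 became 2 with library totals, 0 with the replicate block and 4 with only its groups (0 to 1). Against in vivo PSMPs, 0 became 2 with DESeq2's Wald test, 6 with only its groups, 3 with 2 in vivo libraries and 1 with con-in vitro left out (0 to 1). The difference of effects went from 3 to 5 with 2 in vivo libraries (3 to 5), and the joint test from 8 to 4 with the replicate block (3 to 10). Calls over all genes moved as well across the alternatives. They ran from 0 to 7472 for PSMPs & OE-Hdac3 against in vivo PSMPs, 0 to 5567 against in vitro PSMPs, and 0 to 6657 for SAHA against con. In in vivo PSMPs against con they ran from 0 to 4336, and in SAHA against con-in vitro from 1111 to 6401. For the difference of effects they ran from 255 to 5028, and for the joint test from 1741 to 10766. The moves above are therefore not read as particular to the 10 genes. Replicate numbers only name libraries: deviations of same-numbered libraries correlated at -0.289 to 0.0599.

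All 90 values of the 10 genes were recomputed. Of 1920 alternative values 42 reversed sign, in 21 pairs of gene and comparison, none of them called. Library totals gave Actr3 0.0107, Wasl 0.319 in in vivo PSMPs against con, Actr3 0.426, Cfl1 0.117 in in vitro PSMPs against con-in vitro, Actr3 0.0525, Wasl 0.228, Cfl1 0.435 in SAHA against con-in vitro, Rhoa -0.0182 in SAHA against con, Wasl 0.073, Cfl1 0.202 in PSMPs & OE-Hdac3 against in vitro PSMPs, Myo5b 0.213 in PSMPs & OE-Hdac3 against in vivo PSMPs, Fmn2 -0.225, Spire2 -0.631, Myo5b -0.622 in con-in vitro against con, Actr3 0.415 in the difference of effects. Fits to fewer groups gave Cfl1 0.0606 in SAHA against con-in vitro, Fmn2 -0.0244 in PSMPs & OE-Hdac3 against in vivo PSMPs, Actr3 0.166 in the difference of effects. A minimum count of 50 gave Rhoa -0.055 in SAHA against con. Leaving con-in vitro out gave Rhoa -0.0741 in SAHA against con. DESeq2's size factors gave Myo5b 0.0396 in PSMPs & OE-Hdac3 against in vivo PSMPs. DESeq2's Wald test gave Myo5b 0.0396 in PSMPs & OE-Hdac3 against in vivo PSMPs. Leaving out 1 library in turn, the ranges that crossed 0 were Actr3 -0.871 to 0.374, Wasl -0.171 to 0.12 in in vivo PSMPs against con, Spire2 -0.31 to 8.04 in SAHA against con-in vitro, Actr2 -1.33 to 0.0658, Rhoa -0.351 to 0.437 in SAHA against con, Wasl -0.96 to 0.213, Actr3 -0.0077 to 0.327, Rhoa -0.329 to 0.276 in PSMPs & OE-Hdac3 against in vitro PSMPs, Fmn2 -0.103 to 0.281 in PSMPs & OE-Hdac3 against in vivo PSMPs, Spire2 -6.99 to 6.99, Myo5b -0.0254 to 0.446 in con-in vitro against con, Actr3 -0.96 to 0.352, Spire2 -8.05 to 6.0001 in the difference of effects. The cause was not tested.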
